A study of Mus musculus with 6 samples.

Results

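The RNA of 9 genes of triglyceride storage was compared between wild-type leukaemic cells and leukaemic cells labelled as knockout for Prkaa1 and Prkaa2, genes of the AMP-activated protein kinase (AMPK). They were the acyltransferases Agpat1, Agpat3, Dgat1 and Dgat2, the phosphatidate phosphatase Lpin1, the droplet coat proteins Plin2 and Plin3, and the lipases Pnpla2 and Mgll. They were taken by gene symbol, for their roles and not by a threshold on measured values, and are 9 of the 47643 genes in the table. In the libraries labelled knockout (KO) the RNA of both diacylglycerol acyltransferases was several times higher and Agpat3 RNA was all but absent. Perilipin, lipase and lipin RNA was higher by smaller factors in the values as deposited, and of these Plin2 turned lower and Pnpla2 and Lpin1 lost their calls when the libraries were rescaled to equal sums.

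The cells were leukaemic granulocyte-macrophage progenitors (L-GMP), acute myeloid leukaemia cells with the surface phenotype of the progenitor that normally gives rise to granulocytes and monocytes, taken from C57BL/6 mice by cell sorting. Among 6 libraries, 3 were wild type (WT) and 3 were labelled as a double knockout (KO) of Prkaa1 and Prkaa2, which encode the catalytic subunits of AMPK, a kinase that senses low cellular energy. The oncogene that started the leukaemia, the means of deletion, the age and the number of mice are named in none of the sources used here. Nothing in the labels says that the replicates came from separate mice, so a p-value below measures the spread among libraries, and that spread may be technical.

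Triglyceride is built on glycerol 3-phosphate. Acyltransferases add fatty acids to make phosphatidic acid, lipins remove its phosphate to give diacylglycerol, and diacylglycerol acyltransferases add the last fatty acid in the endoplasmic reticulum. The product is stored in lipid droplets under a coat of perilipins, and lipases take it apart again one fatty acid at a time, from triglyceride to diacylglycerol, monoacylglycerol and glycerol. AMPK is best known in lipid metabolism for switching off fatty acid synthesis and favouring oxidation.

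Levels are given as deposited, in FPKM, a read number scaled by gene length and by a divisor for each library, so that levels of different genes can be set side by side. Values of 3 libraries are in the order of replicates 1, 2 and 3, and errors are SD over 3 libraries. Log2 fold changes are KO minus WT differences of log2(FPKM + 1) with their SE, from limma, a linear model fitted to all 9108 genes that averaged 1 FPKM or more. Adjusted p-values are by Benjamini-Hochberg over those genes, and a gene is called higher or lower where its adjusted p was under 0.05.

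Reads recovered from the FPKM values came to between 11390343 and 16415932 per WT library and between 12372343 and 14025385 per KO library. The library divisors recovered with them ran from 12710036 to 18096883 in WT, above the reads of every library. In KO they ran from 11400436 to 12937928, below the reads of every library. The values as deposited are thus not scaled by these read totals, and how the divisors were set is named in no source used here. Prkaa1 was at 2.01, 2.20 and 1.80 FPKM in WT and 1.11, 0.735 and 0.548 FPKM in KO, a KO mean 0.398 of the WT mean (limma adjusted p = 0.00112). Prkaa1 averaged 1 FPKM or more only through its WT values, so that its test is no support for the label. The table holds 1 value a gene and does not show which exons the remaining reads came from. Prkaa2 had 2 reads over the WT libraries and 4 over the KO libraries, too few to check its label. Markers of several cell types moved with genotype. The 10 listed progenitor genes summed to between 7841 and 8141 FPKM in WT and between 16707 and 17004 in KO, but went both ways. The surface markers Cd34, Fcgr3 and Fcgr2b averaged 27.8, 129 and 14.9 FPKM in WT and 3.51, 66.8 and 4.19 in KO. The granule genes Elane, Prtn3, Mpo and Ctsg averaged 1758, 472, 159 and 5423 FPKM in WT and 7923, 2056, 442 and 6362 in KO. Kit averaged 0.250 and 1.43 FPKM, Csf3r 0.720 and 2.09, and Csf1r was under 0.3 in all libraries. The 11 listed mature neutrophil genes, none of them at 0 in all libraries, summed to between 317 and 332 FPKM in WT and between 71423 and 72819 in KO. Most of the KO sum was S100a8, at a mean of 52072 FPKM, and S100a9, at 14560, while Ly6g, Retnlg and Cxcr2 averaged 0.837, 1.63 and 0.643 FPKM in KO and Mmp9 was listed at 0 there. The 10 listed eosinophil, basophil and mast cell genes summed to between 30.1 and 36.2 FPKM in WT and between 580 and 610 in KO, with Ear1 at 0 throughout. The 10 macrophage genes reached at most 4.17 FPKM in WT and 11.0 in KO, most of it Adgre1, with C1qa, C1qc and Cd5l at 0 and Cd163 at 0.560 FPKM in WT and 0 in KO, and the 9 erythroid genes at most 22.9 and 55.6. The KO libraries thus differed from WT in far more than the lipid genes, and the part of these markers in the results below was not tested. The 6 adipocyte genes summed to at most 0.485 FPKM in any library, with Adipoq at 0. In bulk RNA, fewer cells of a type and less RNA per cell cannot be told apart.

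All FPKM values of a library summed to between 463683 and 475654 in WT and between 649611 and 653819 in KO, and the 10 genes with the most reads took at most 5.76% of reads in WT and at least 17.1% in KO. The comparison was therefore also run with libraries rescaled to equal sums of 1000000, which moved the median log2 fold change of all genes tested from -0.02 to -0.45. This raises every value above 0, in WT by more than in KO, before 1 is added. The added 1 then weighs less, so the rescaled change of a low gene reflects both. Where this changes what is said of a gene, the rescaled value is given beside it. Of the 9 genes, 8 were higher in KO and 1, Agpat3, was lower as deposited, and 5 were higher and 2 lower once rescaled. Of all 9108 genes tested, 38.0% were called higher and 40.4% lower as deposited, and 22.7% and 59.0% rescaled, so most genes carried a call. Groups did not overlap for any of the 9, as for 80.6% of all genes; every KO library was above every WT library for 8 of the 9 and for 39.1% of all genes, and below for 1 and for 41.6%. Agpat1 and Lpin1 passed the minimum mean only through their KO values and Agpat3 only through its WT values, so that their tests and calls are no support; the other 6 were all higher as deposited, and 4 higher and 1 lower rescaled. The median log2 fold change of the 9, a description, was 0.63 as deposited, beside -0.02 for all genes, and 0.17 rescaled, beside -0.45.

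**Figure D1:**
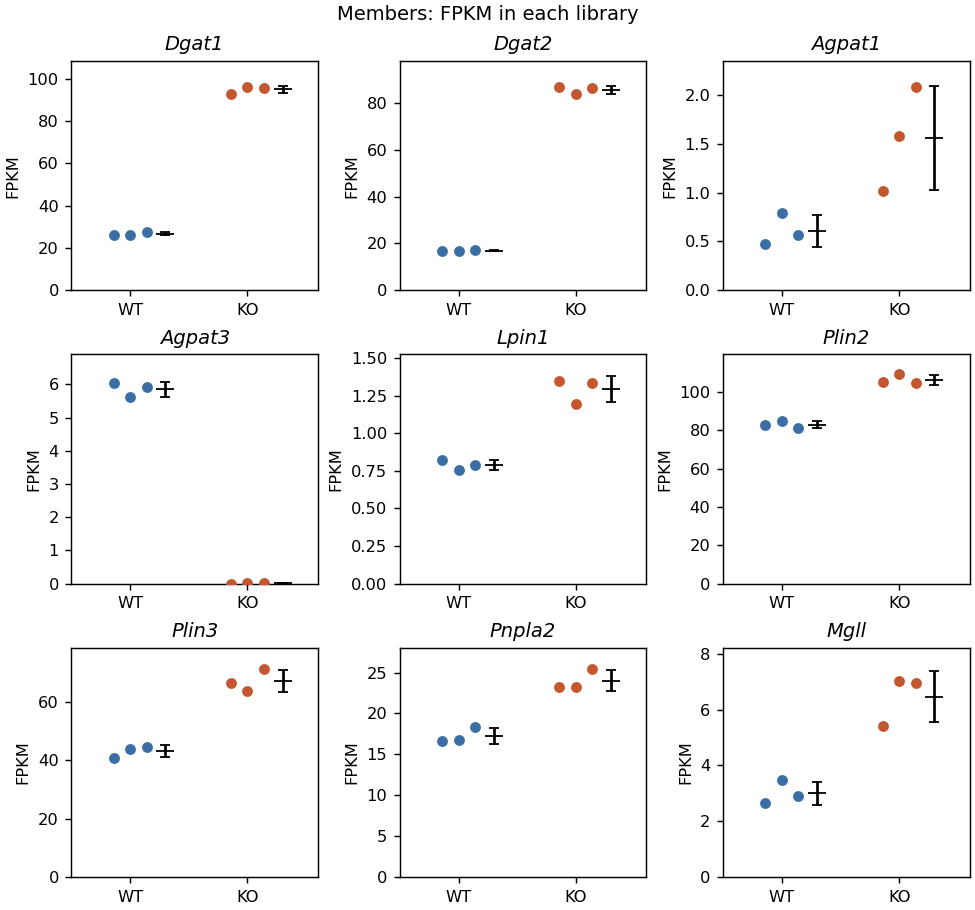
FPKM of the 9 genes in each of the 3 WT (blue) and 3 KO (orange) libraries, each panel on its own linear axis from 0; the black mark is the mean with SD. As deposited, the KO points lie above the WT points in 8 panels and near 0 in that of Agpat3.

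Lysophosphatidic acid acyltransferases (AGPATs) make phosphatidic acid, and the listed members of this family went different ways. Agpat3, an enzyme of the endoplasmic reticulum and Golgi that favours polyunsaturated acyl groups (ENSMUSG00000001211, GRCm38 chr10:78269178-78352489, minus strand), was at 6.05, 5.61 and 5.91 FPKM in WT. In KO it was listed at 0, 0.0116 and 0.0102 FPKM. The WT libraries held 583, 769 and 632 Agpat3 reads and the KO libraries 0, 1 and 1, so the transcript went from a moderate level to the edge of detection in every KO library. The read numbers of Agpat3, like those of Lpin1, Gpam and Soat2 below, rest on a gene length searched for rather than annotated. They are the smallest that the values allow. Scaled by the FPKM divisors, WT had 820 times the reads of KO. The 95% exact interval, from 227 to 6777, covers counting error alone, as amplified reads with no molecular identifier may come from the same molecule. On the log2(FPKM + 1) scale the difference was -2.77 (SE 0.07, limma adjusted p = 5.38e-08), for a gene that entered the test through its WT level alone. That scale understates the change of a gene near 0: with 0.1 FPKM added in place of 1 the value was -5.80, with limma-voom on recovered reads -9.05, and rescaled -3.73.

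The listed neighbours of Agpat3 went both ways. Of all genes tested, 38.0% were called higher and 40.4% lower as deposited, and 22.7% and 59.0% rescaled. These neighbours were looked up after the value of Agpat3 was seen. Trappc10, 24.5 kb before Agpat3 on the chromosome, averaged 0.837 FPKM in WT and 1.57 in KO. It was called higher as deposited, but passed the minimum mean only through its KO values. Pwp2, at 84.0 kb on the same side, fell from 13.5 to 3.03 FPKM. On the other side Gm10146, at 40.8 kb, fell from 10.3 to 2.16 FPKM, and Rrp1, at 47.9 kb, from 182 to 101. Upstream of Agpat3, the bases before the RefSeq start (chr10:78351701-78351950, minus strand, GRCm38.p6) are shown because this gene had the largest difference of the 9. The RefSeq start differs from the start of the GENCODE gene model used for the positions. They are written 5′ to 3′, with matches on either strand to the E-box CACGTG, the CCAAT box CCAAT and the GC box GGGCGG in capitals. None of these 3 motifs occurs in this window.
Agpat3: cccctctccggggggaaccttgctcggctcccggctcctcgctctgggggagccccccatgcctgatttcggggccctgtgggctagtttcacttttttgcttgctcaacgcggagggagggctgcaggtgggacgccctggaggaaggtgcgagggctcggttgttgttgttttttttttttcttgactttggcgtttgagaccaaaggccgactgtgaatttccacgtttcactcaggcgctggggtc

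Agpat1, the ubiquitous member of the family in the endoplasmic reticulum (ENSMUSG00000034254, chr17:34604262-34613449, plus strand), was at 0.472, 0.792 and 0.567 FPKM in WT and 1.02, 1.58 and 2.09 FPKM in KO. These are low levels resting on 85 reads in WT and 174 in KO, and the KO libraries spread widely, though the lowest KO library was above the highest WT library. Agpat1 was higher by 0.65 on the log2(FPKM + 1) scale (SE 0.17, limma adjusted p = 0.00829), or 2.56-fold between the mean levels of 0.610 ± 0.164 and 1.56 ± 0.535 FPKM. The log2 fold change was 1.20 with 0.1 FPKM added and 1.28 with limma-voom. Another gene shares 3.37% of its exonic bases, and no source says whether strand was used in counting, so some of its few reads could belong there.

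The levels of the other AGPATs put these 2 in proportion. Agpat2, the form whose loss causes lipodystrophy, was the most abundant of Agpat1 to Agpat5 in both genotypes and rose from 26.0 ± 1.66 to 70.5 ± 2.28 FPKM (log2 fold change 1.41, limma adjusted p = 2.64e-07). Agpat5, a mitochondrial form, fell from 15.4 ± 0.414 to 10.6 ± 0.174 FPKM, and Agpat4 averaged 1.77 in WT and 1.73 in KO (limma adjusted p = 0.805). Rescaled, Agpat4 was called lower, at -0.40 (limma adjusted p = 0.0365). As deposited, Agpat1 to Agpat5 summed to 49.6 ± 1.86 FPKM in WT and 84.4 ± 1.77 in KO, the KO sum being reached with Agpat3 near 0. This sum was not rescaled. Within a library, (Agpat3 + 1)/(Agpat1 + 1) in FPKM was 4.79, 3.69 and 4.41 in WT and 0.496, 0.392 and 0.327 in KO. This ratio differed by -3.42 on the log2 scale (exact permutation p = 0.1, two-sided, the smallest that 3 against 3 libraries allow). Each of these genes passed the minimum mean through 1 genotype alone, so that this test is no support. With Agpat3 near 0 in KO, the size of the difference depends on the 1 FPKM added. At the step before, the glycerol-3-phosphate acyltransferases Gpat4 and Gpat2 were called higher by small amounts as deposited, and Gpat2 lost its call when rescaled. Gpat4, the more abundant at 14.2 FPKM in WT and 16.1 in KO, was higher by 0.17 as deposited and lower by a log2 fold change of -0.28 (limma adjusted p = 0.00254) once rescaled. Gpam, the mitochondrial form, had 33 reads in WT and 3 in KO and was under the minimum mean, as was Gpat3, listed as Agpat9.

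Lpin1 encodes a lipin, the phosphatase that turns phosphatidic acid into diacylglycerol and also acts in the nucleus as a transcriptional coactivator (ENSMUSG00000020593, chr12:16535669-16610966, minus strand). It was at 0.825, 0.753 and 0.793 FPKM in WT and 1.35, 1.20 and 1.34 FPKM in KO, with 202 and 276 reads. The difference was small but the libraries of each genotype lay close together, and the groups did not overlap. Lpin1 was higher by 0.36 on the log2(FPKM + 1) scale (SE 0.08, limma adjusted p = 0.00366), 1.64-fold between means. Rescaled, the value was 0.16 with an adjusted p of 0.177, and the call was lost; with 0.1 FPKM added it was 0.65 and with limma-voom 0.72. Its relative Lpin2 went from 0.429 ± 0.0422 to 1.72 ± 0.125 FPKM (4.01-fold, log2 fold change 0.93, limma adjusted p = 2.53e-05), and likewise passed the minimum mean through KO alone. Lpin2 was the higher of the pair in KO and Lpin1 in WT. Lpin3 had 1 read in all. Ctdnep1, the catalytic part of the phosphatase that activates lipins, fell from 5.89 to 4.47 FPKM (limma adjusted p = 0.0325), and its regulatory subunit Cnep1r1 averaged 4.91 and 5.26 (adjusted p = 0.325). Rescaled, Cnep1r1 was called lower, at -0.34 (limma adjusted p = 0.00538). Among the lipid phosphate phosphatases of the cell surface, Plpp2 fell from 30.1 to 6.60 FPKM and Plpp1, which passed the minimum mean through KO alone, went from 0.157 to 2.93, with 25.8% of the exonic bases of Plpp1 shared with other genes.

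Dgat1 and Dgat2 catalyse the last and only committed step of triglyceride synthesis and are unrelated in sequence. Dgat1 (ENSMUSG00000022555, chr15:76502015-76511953, minus strand) was at 26.3, 26.2 and 27.5 FPKM in WT and 93.1, 96.4 and 95.9 FPKM in KO. Dgat2 (ENSMUSG00000030747, chr7:99153658-99182719, minus strand) was at 16.8, 16.7 and 17.2 FPKM in WT and 86.9, 84.0 and 86.5 FPKM in KO. Every KO library was several times above every WT library for both genes, and the spread within a genotype was a small part of the gap. Dgat1 rose 3.57-fold, from 26.6 ± 0.710 to 95.1 ± 1.80 FPKM, with a log2 fold change of 1.80 (SE 0.03, limma adjusted p = 1.30e-08). Dgat2 rose 5.07-fold, from 16.9 ± 0.229 to 85.8 ± 1.55 FPKM, with a log2 fold change of 2.28 (SE 0.03, limma adjusted p = 4.04e-09). Of the 9108 genes, 12.8% were higher by at least 2-fold on that scale, and Dgat2 ranked 210th and Dgat1 400th from the highest change. Rescaled, the changes were 1.35 for Dgat1 and 1.84 for Dgat2, with the median of all genes at -0.45.

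The factor was larger for Dgat2 than for Dgat1, in a design too small for the exact test of their ratio to pass 0.05. The Dgat2 to Dgat1 ratio of FPKM, which does not depend on how libraries are scaled to one another, was 0.642, 0.639 and 0.626 in WT and 0.933, 0.871 and 0.902 in KO. It was 1.42-fold higher in KO (log2 difference 0.51, exact permutation p = 0.1, two-sided, again the smallest possible). Dgat1 remained the more abundant of the pair in all 6 libraries. Together they went from 43.6 ± 0.936 to 181 ± 1.28 FPKM, 4.15-fold as deposited. Mogat2, a relative of Dgat2 that acylates monoacylglycerol to diacylglycerol in the gut, lies 36.4 kb from Dgat2 on the same chromosome. It rose from 2.72 ± 0.407 to 23.1 ± 1.24 FPKM (8.51-fold, log2 fold change 2.70, limma adjusted p = 1.66e-07), the largest rise on the log2(FPKM + 1) scale among the pathway genes tested. The other listed neighbours of Dgat2 went both ways. Uvrag, at 12.5 kb, was called higher, from 1.40 to 2.83 FPKM as deposited, Prkrir, at 435.6 kb, lower by a log2 fold change of -0.83, and Rps3, at 295.2 kb, lower by -0.33. Prkrir passed the minimum mean only through its WT values. Tmem68, a more distant acyltransferase, averaged 4.08 and 4.05 FPKM (limma adjusted p = 0.904), and was called lower once rescaled, at -0.43 (limma adjusted p = 0.00456). Mogat1 was listed at 0 in all 6 libraries.

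**Figure D2:**
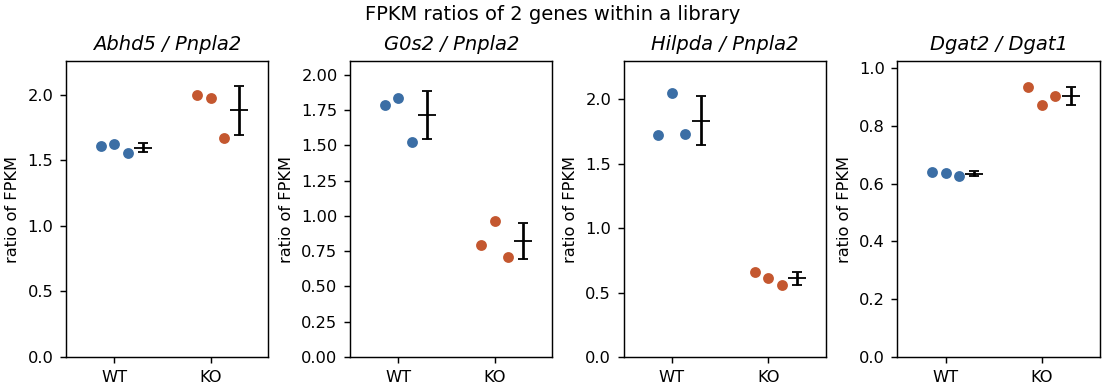
Ratios of the FPKM of 2 genes within each library, with WT in blue, KO in orange, and mean and SD in black on linear axes from 0. Dgat2 to Dgat1 and Abhd5 to Pnpla2 are higher in KO, with KO values of 0.871 or more and 1.67 or more, and G0s2 to Pnpla2 and Hilpda to Pnpla2 are lower in KO.

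Plin2 (adipophilin) coats lipid droplets in most cells outside fat and is degraded when it is not bound to one, and Plin3 (TIP47) moves from the cytosol onto young droplets. Plin2 (ENSMUSG00000028494, chr4:86648386-86670060, minus strand) was at 82.9, 84.7 and 81.2 FPKM in WT and 105, 109 and 105 FPKM in KO. Plin3 (ENSMUSG00000024197, chr17:56277476-56292873, minus strand) was at 40.9, 43.8 and 44.7 FPKM in WT and 66.5, 63.7 and 71.3 FPKM in KO. Neither gene's groups overlapped, and the steps were modest beside those of the acyltransferases. Plin2 was 1.28-fold higher (82.9 ± 1.74 against 106 ± 2.56 FPKM; log2 fold change 0.36, SE 0.03, limma adjusted p = 2.12e-05). The direction of Plin2 depends on the scaling. Rescaled to equal sums it was lower in KO, at -0.11 (limma adjusted p = 0.0131), which is still 0.34 above the rescaled median of all genes. With quantile and cyclic loess normalization Plin2 was higher in KO, at 0.35 and 0.43. Plin3 was 1.56-fold higher (43.1 ± 2.0 against 67.2 ± 3.85 FPKM; log2 fold change 0.63, SE 0.05, limma adjusted p = 2.17e-05), and rescaled it was higher by 0.17 (adjusted p = 0.0181).

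The ratio of Plin2 to Plin3 was 2.03, 1.93 and 1.82 in WT and 1.58, 1.72 and 1.47 in KO, lower in every KO library (log2 difference -0.28, exact permutation p = 0.1, two-sided, the smallest possible). Plin2 stayed the most abundant of the 9 genes in both genotypes. As deposited, the pair summed to 126 ± 2.38 FPKM in WT and 174 ± 2.34 in KO, 1.38-fold. The FPKM of all genes also summed higher in KO, to at least 649611 against at most 475654 in WT, and the pair's sum was not rescaled. Within a genotype, the summed perilipin RNA was above the summed Dgat1 and Dgat2 RNA in WT and below it in KO. The perilipins of fat cells and oxidative muscle were not part of this coat: Plin1 averaged 0.0169 FPKM in WT and 0.0175 in KO, and Plin4 and Plin5 had 1 read each. The upstream windows of both expressed perilipins are shown because each holds 1 CCAAT box, as do 33.9% of 32851 RefSeq windows of this length. They are at chr4:86670060-86670309 and chr17:56290512-56290761, both on the minus strand, in the same notation as above. The CCAAT box begins 73 bases before the RefSeq start of Plin2 and 75 before that of Plin3. A window of Agpat1, not shown, also holds 1 CCAAT box. Of the windows of Plin2 and Plin3, only that of Plin3 holds GC boxes, which 32.7% of all windows hold. The ones nearest its start overlap by a base. A match is a description of the letters and not a shown binding site.
Plin2: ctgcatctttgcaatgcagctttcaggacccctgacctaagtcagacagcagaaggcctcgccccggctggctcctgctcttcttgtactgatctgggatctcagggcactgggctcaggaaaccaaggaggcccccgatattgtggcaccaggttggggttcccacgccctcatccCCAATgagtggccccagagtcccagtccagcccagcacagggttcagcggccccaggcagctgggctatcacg
Plin3: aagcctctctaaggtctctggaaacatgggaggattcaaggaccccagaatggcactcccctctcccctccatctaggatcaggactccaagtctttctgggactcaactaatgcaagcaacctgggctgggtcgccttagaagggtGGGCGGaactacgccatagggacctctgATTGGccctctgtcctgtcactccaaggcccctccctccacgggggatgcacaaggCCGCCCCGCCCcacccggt

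Pnpla2 encodes adipose triglyceride lipase (ATGL), which releases the first fatty acid from stored triglyceride (ENSMUSG00000025509, chr7:141455198-141460743, plus strand). It was at 16.6, 16.8 and 18.3 FPKM in WT and 23.2, 23.3 and 25.5 FPKM in KO, with the lowest KO library above the highest WT one. Pnpla2 was 1.39-fold higher (17.2 ± 0.934 against 24.0 ± 1.30 FPKM; log2 fold change 0.45, SE 0.06, limma adjusted p = 0.000212). Rescaled, the difference was 0.0064 with an adjusted p of 0.920, and the call was lost; it lay 0.45 above the rescaled median of all genes.

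The activity of ATGL depends on its partners, and the RNA of these went opposite ways. These data hold RNA alone, and the activity of ATGL was not tested. Abhd5 (CGI-58), its activator, rose from 27.5 ± 0.926 to 45.0 ± 2.12 FPKM (log2 fold change 0.69, limma adjusted p = 6.22e-06). G0s2, its inhibitor, fell from 29.5 ± 1.46 to 19.6 ± 2.38 FPKM (log2 fold change -0.57, adjusted p = 0.000503). Hilpda, another protein that inhibits ATGL and is induced by hypoxia, fell 2.17-fold, from 31.5 ± 2.91 to 14.6 ± 0.644 FPKM (log2 fold change -1.06, adjusted p = 6.16e-06). These 3 calls kept their directions when rescaled, at 0.24, -1.04 and -1.54. Relative to Pnpla2 within a library, ratios chosen after the values were seen and therefore given with no test, G0s2 was at 1.78, 1.84 and 1.52 in WT and 0.792, 0.961 and 0.710 in KO. Hilpda to Pnpla2 was 1.72, 2.05 and 1.73 in WT and 0.659, 0.612 and 0.555 in KO. Abhd5 to Pnpla2 was 1.61, 1.62 and 1.56 in WT and 2.0, 1.97 and 1.67 in KO. Both inhibitors were thus above Pnpla2 in every WT library and below it in every KO library, and the activator was above it in all 6.

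Mgll encodes monoacylglycerol lipase, which splits the last fatty acid from glycerol and also degrades the endocannabinoid 2-arachidonoylglycerol (ENSMUSG00000033174, chr6:88724412-88828360, plus strand). It was at 2.67, 3.46 and 2.89 FPKM in WT and 5.42, 7.03 and 6.94 FPKM in KO. The KO libraries were all above the WT ones, with a wider spread than Pnpla2 in proportion to the level. Mgll was 2.15-fold higher (3.01 ± 0.410 against 6.46 ± 0.906 FPKM; log2 fold change 0.90, SE 0.12, limma adjusted p = 0.000256), and 0.56 rescaled (adjusted p = 0.00433). Other genes share 3.29% of its exonic bases. Abhd6, a second lipase for monoacylglycerol, also rose, from 4.32 ± 0.211 to 12.4 ± 0.929 FPKM (2.86-fold), as did Daglb, which makes 2-arachidonoylglycerol from diacylglycerol, 3.08-fold to 4.94 FPKM, with 24.1% of its exonic bases shared. Lipe, the hormone-sensitive lipase that acts between ATGL and monoacylglycerol lipase, was low, at 1.37 ± 0.240 FPKM in WT and 1.87 ± 0.125 in KO (log2 fold change 0.28, limma adjusted p = 0.0322), and its call was lost when rescaled (-0.01, adjusted p = 0.931). Of the 7 genes with a RefSeq window, Mgll is the only one with an E-box, found in 6.02% of all windows and here beginning 44 bases before the start. For that reason the window at chr6:88724162-88724411, plus strand, is shown in the notation above. A second RefSeq window of Mgll holds a GC box and no E-box, and is not shown.
Mgll: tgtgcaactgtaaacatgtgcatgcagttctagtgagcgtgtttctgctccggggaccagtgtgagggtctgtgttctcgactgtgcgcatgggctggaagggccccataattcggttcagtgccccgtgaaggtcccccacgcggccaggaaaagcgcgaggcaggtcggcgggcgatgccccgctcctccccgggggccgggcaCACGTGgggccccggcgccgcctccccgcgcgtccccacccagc

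**Figure D3:**
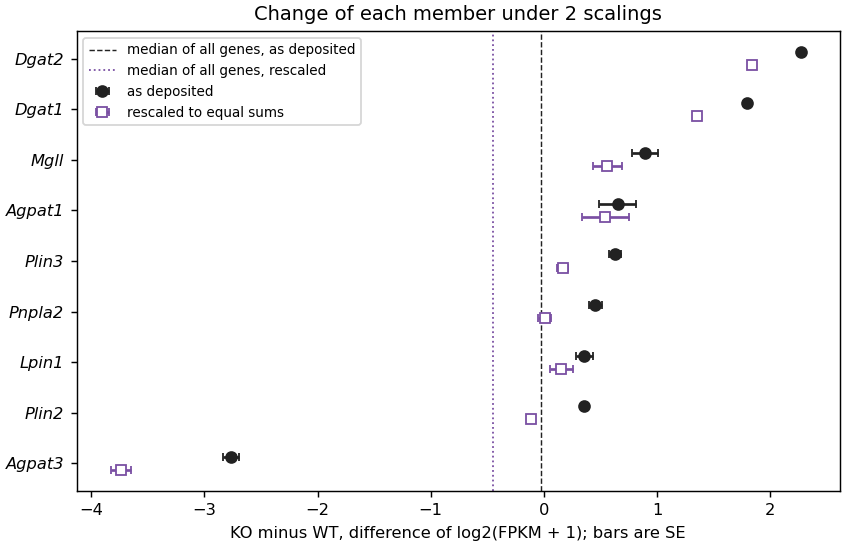
Log2 fold change, KO minus WT, of the 9 genes on the log2(FPKM + 1) scale with SE, as deposited (black circles) and with libraries rescaled to equal sums (purple squares); dashed and dotted lines are the medians of all 9108 genes under each scaling, -0.02 and -0.45. Dgat1, Dgat2, Mgll, Agpat1, Plin3 and Lpin1 stay to the right of 0 under both, Pnpla2 comes to lie at 0 and Plin2 just below it.

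The order of levels among the 9 genes changed between genotypes. In WT it ran from Plin2 through Plin3, Dgat1, Pnpla2, Dgat2, Agpat3, Mgll and Lpin1 to Agpat1. Pnpla2 and Dgat2 overlapped between libraries in WT, as did Lpin1 and Agpat1, and the other neighbours in the order did not. In KO it ran from Plin2 through Dgat1, Dgat2, Plin3, Pnpla2, Mgll, Agpat1 and Lpin1 to Agpat3, and only Agpat1 and Lpin1 overlapped. Dgat1 and Dgat2 thus passed Plin3, and Agpat3 went from the middle to the bottom. Among all genes tested, ranked by mean level, Dgat2 went from the 68.4th percentile in WT to the 89.0th in KO and Dgat1 from the 75.4th to the 89.8th, while Plin2 went from the 88.5th to the 90.7th. All 9 together summed to 197 ± 3.14 FPKM in WT and 388 ± 6.04 in KO, 1.97-fold as deposited, a sum that was not rescaled.

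The wider pathway was described with 78 genes of triglyceride and droplet metabolism, the 9 included. Of these, 49 passed the minimum mean, 27 were higher in KO, 14 lower and 8 did not pass the test. Among the 49, Agpat1, Lpin1, Lpin2, Plpp1 and Pparg passed it only through KO and Agpat3, Pnpla7 and Slc27a1 only through WT; of the other 41, 23 were higher and 11 lower as deposited, and 14 and 20 rescaled. Without the 9, 40 were tested, and 19 were higher and 13 lower as deposited, against 38.0% and 40.4% of all genes. Their median log2 fold change was 0.14 as deposited, beside -0.02 for all genes, and -0.27 rescaled, beside -0.45. By role, lipolysis had 8 of 10 tested genes higher and 1 lower as deposited, and 5 higher and 3 lower rescaled, where Pnpla2 and Lipe lost the call and Lipa turned lower. The lipolysis gene lower as deposited was Pnpla7, a lysophospholipase, from 1.86 to 0.333 FPKM. Droplet formation had 2 of 7 higher and 3 lower as deposited, and 1 higher and 5 lower rescaled. As deposited, fatty acid activation had 1 of 4 higher and 2 lower, and the AGPATs 2 of 5 in each direction. Acsl5, which activates fatty acids at the endoplasmic reticulum and mitochondria, fell from 41.6 to 18.0 FPKM. The fatty acid binding protein Fabp5 fell from 32.6 to 15.1 FPKM and the fatty acid transporter Slc27a1 from 2.38 to 0.550. Of the regulators, Tfe3, a transcription factor of lysosomal and lipid catabolic genes, rose 3.62-fold from 1.14 to 4.14 FPKM. Pparg, a master regulator of fat storage, averaged 0.859 and 1.29 FPKM (limma adjusted p = 0.157), and Ppara and Ppargc1a were listed at 0 in all 6 libraries. Soat2, a cholesterol acyltransferase singled out after its values were seen, had 165 reads in WT and 0 in KO. Scaled by the FPKM divisors, it was at least 45.5-fold lower against a floor of 3 reads over the group. Soat2 was under the minimum mean and not tested. Soat1 averaged 12.5 and 16.9 FPKM and was called higher as deposited only (-0.04 rescaled, limma adjusted p = 0.523).

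These counts depend on the scaling more than the large changes do. Rescaled to equal sums, 17 of the 49 were higher and 23 lower, where 22.7% and 59.0% of all genes were. Of the 27 higher genes 17 stayed higher, 6 lost the call and 4 turned lower, namely Lipa, Plin2, Gpat4 and Rab18. All 14 lower genes stayed lower, Agpat3 among them. Of the 8 that did not pass as deposited, 5 turned lower, Agpat4, Cnep1r1 and Tmem68 among them. The 8 genes higher by at least 2-fold on the log2(FPKM + 1) scale, as deposited, were Dgat1, Dgat2, Agpat2, Plpp1, Mogat2, Abhd6, Daglb and Tfe3, and the 7 lower by as much were Agpat3, Plpp2, Acsl5, Hilpda, Pnpla7, Fabp5 and Slc27a1. Of all genes, 12.8% were higher and 13.6% lower by that much on that scale. By the ratio of mean FPKM, Lpin2, Agpat1, Slc27a4 and Mgll were also more than 2-fold higher, at 4.01, 2.56, 2.55 and 2.15.

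**Figure D4:**
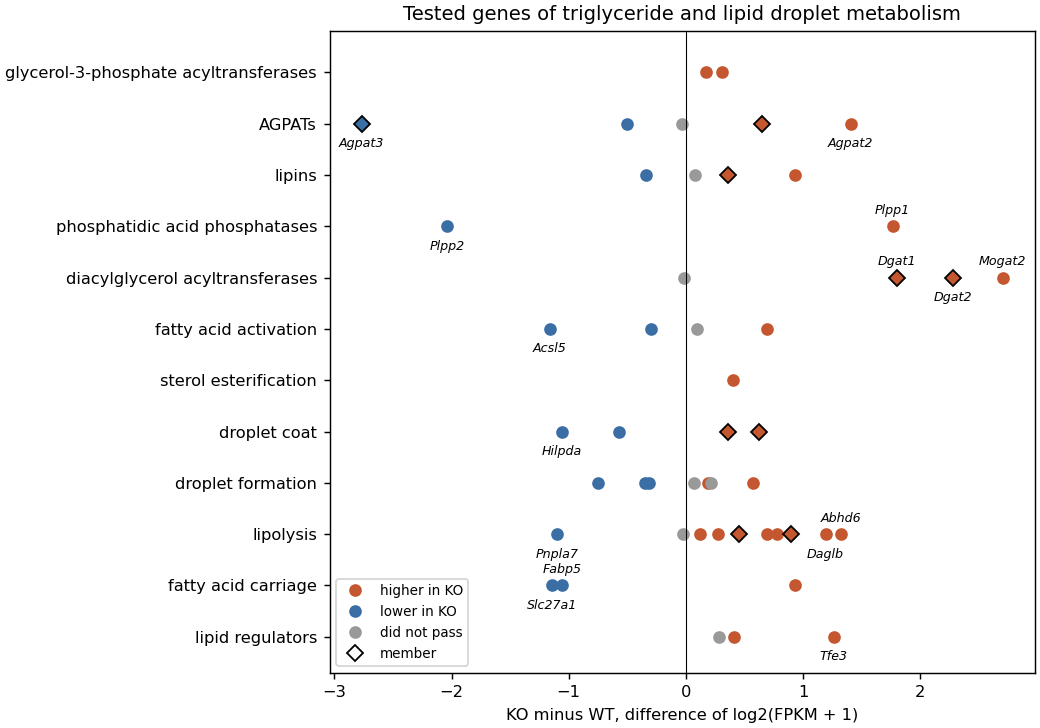
Log2 fold change, KO minus WT, on the log2(FPKM + 1) scale for the 49 pathway genes tested, by role, as deposited; colours give the call (orange higher, blue lower, grey did not pass) and diamonds the 9 genes described. Genes changed by at least 2-fold on that scale are named, with Agpat3 and Plpp2 at the low end and Mogat2 and Dgat2 at the high end.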

How the data were processed

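Sorted leukaemic progenitors were profiled by Smart-seq2 with Nextera XT libraries on a NextSeq 500, per the labels' protocols. The submitters' processing notes name CASAVA, bcl2fastq, STAR 2.5.3a, DESeq2 1.18.1 and mm10 without roles; no source used here gives the counter, its strand setting or its annotation. The authors deposited 1 table of FPKM values. Whole reads were recovered from them (tolerance 0.001 reads plus 1e-08 of the read number) for all but 1 of the 21132 genes above 0, 4650 of them at a searched length. Reads gave depths, intervals and 1 alternative. The intervals and the alternative took the FPKM divisors as library sizes. Positions came from GENCODE M21 (GRCm38), and upstream windows of 250 bases, for 7 of the 9 genes, from RefSeq (GRCm38.p6).

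The test was limma 3.58.1 (R 4.3.3) with a mean-variance trend, two-sided, on log2(FPKM + 1), minimum mean 1 FPKM, 3 WT against 3 KO libraries. On simulated data with 50 genes changed at each fold, it recovered 42% at 1.25-fold, 84% at 1.5-fold and 96% at 2-fold and 4-fold. It also called 17 unchanged genes. The changed genes were drawn only from genes above a minimum read number, which Agpat1 did not reach. Far fewer genes were changed in the simulation than were called in the real data. Ratios and summaries used Python 3.11.15, numpy 2.4.6, pandas 2.3.3 and scipy 1.17.1. Named pathway genes were those changed by at least 2-fold on that scale, or that bind, regulate or parallel one of the 9; Tmem68, Mogat1, Gpat2, Soat1, Soat2, Lipa, Rab18, Slc27a4, Pparg, Ppara, Ppargc1a and the neighbours were named after their values were seen. Genes and lists were chosen with earlier results of these data known. Same-numbered libraries did not deviate together (correlations 0.0095, -0.0118 and -0.0166), so no pairing was used. For the Agpat3 to Agpat1 ratio 1 FPKM was added to both, since 1 KO library was at 0.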

Additional observations from a re-analysis of the deposited data

How the results depend on the processing

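Of 237 recomputed values, 223 kept their direction, side of the threshold or size. A count within a set factor of the main one was taken as kept, such as 5376 genes lower rescaled against 3676. Genes that fell under the minimum mean in a setting were not among the 237. Rescaling to equal sums gave 2069 genes, 5 of the 9 and 17 pathway genes higher, 2 of the 9 and 23 pathway genes lower; it reversed Plin2 (-0.11) and cost Lpin1 (0.16) and Pnpla2 (0.0064) their calls, and the cause was not tested. With no minimum mean 5769 genes were lower. A minimum of 5 FPKM, which tests fewer genes, gave 2072 higher, 2383 lower, 5 and 0 of the 9, and 15 pathway genes higher; Agpat1, Agpat3, Lpin1 and Mgll then fall under it. Leaving out 1 library gave 3285 to 3414 genes higher and 3414 to 3699 lower, 6 to 8 of the 9 higher (Agpat1 or Lpin1 falling under the minimum) and 1 lower, and 21 to 26 pathway genes higher and 11 to 14 lower; Agpat1 ranged from 0.59 to 0.81 and Mgll from 0.83 to 1.0. Limma-voom on recovered reads called 3537 genes higher and 3739 lower, with 8 and 1 of the 9. Quantile and cyclic loess normalization each called 8 of the 9 higher and 1 lower. They kept the calls of Plin2 (0.35 and 0.43), Pnpla2 (0.50 and 0.56) and Lpin1 (0.37 and 0.32). A replicate block, where the shared numbers do not pair the libraries, called 3420 and 3620, changed 312 of 9108 calls, 2 of them in the pathway and 0 among the 9. With 2 against 3 libraries the exact permutation tests of the ratios cannot fall below p = 0.2. Depth limits Agpat1, Lpin1 and, in KO, Agpat3.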
